A study of Danio rerio with 6 samples.

Results

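The retinal membrane guanylate cyclases, the guanylate cyclase-activating proteins and the recoverins were compared between adult zebrafish retinas without and with thrb, the gene for thyroid hormone receptor beta. The members are the genes whose symbol begins with guca1 or gucy2, together with gc3, rcv1 and zgc:73075, and they number 10 of the 9211 genes in the authors' deposited table. They comprise 2 cyclases (gc3 and gucy2f), 6 activators (guca1a, guca1b, guca1c, guca1d, guca1e and guca1g) and 2 recoverins (rcv1 and zgc:73075). The mutants were homozygous for the stl628 allele of thrb (thrb-/-), the controls were wild-type fish of the same clutches, and both were 6 months old on the AB* background. Each genotype had 3 samples, and each sample pooled 2 retinas of a male with 2 of a female. The allele was present throughout development, so an effect in the mature retina cannot be told apart from one that arose earlier. The table gives 1 mean per genotype and no values per sample, so read depth and the values of single samples are unknown.

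In the dark, photoreceptors keep cation channels open with cyclic GMP. Light activates a phosphodiesterase that removes it, the channels close and calcium inside the outer segment falls. Membrane guanylate cyclases remake cyclic GMP, and the small calcium-binding activator proteins (GCAPs) stimulate them once calcium has fallen, which restores the dark state and adapts the cell to steady light. Recoverins are calcium sensors of the same protein family that hold back the kinases of the visual pigments while calcium is high. Fish carry more of these genes than mammals. In zebrafish, gc3 and the activators guca1c, guca1d, guca1e and guca1g are known as cone genes, as are the recoverins rcv1 and zgc:73075, which RefSeq also calls rcv2a and rcv2b. The other members, gucy2f, guca1a and guca1b, are not assigned to cones alone here. These sites are background knowledge and were not measured in whole retina, where fewer cells of a type and less RNA per cell cannot be told apart.

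The target gene and the red opsins check the labels. In the authors' deposited table thrb had a mean normalized count of 413 in thrb-/- retinas against 3301 in wild-type retinas, 8.03-fold lower. The red opsins opn1lw1 and opn1lw2 had means of 177 and 61.1 in thrb-/- retinas against 51643 and 41322 in wild-type retinas, again from the authors' deposited table. Rod opsin, rho, the defining gene of rods, had 713968 in thrb-/- retinas against 592476 in wild-type retinas, the highest count in the authors' deposited table. The difference in rho did not pass the Wald test given below (log2 fold change 0.27, standard error 0.095, adjusted p = 0.14). Against that loss of red opsin, the question for the 10 genes is how far the transcripts of the cyclic GMP supply and of its calcium control differ between the genotypes.

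None of the 10 genes passed the test. By a two-sided Wald test on the deposited log2 fold change and its standard error (SE), with Benjamini-Hochberg adjustment over all 9211 genes, 0 members were lower and 0 higher at an adjusted p of 0.05, where 2.08% of all genes passed, 1.21% lower and 0.879% higher. The members' adjusted p ran from 0.45 to 0.997. At an unadjusted p of 0.05, 2 of 10 were lower (rcv1 and guca1g) and 0 higher, beside 4.54% and 3.76% of all genes. The authors' own test, which asks for a change beyond 2-fold, called 0 of the 10, and 0.076% of all genes. It could call none of the members, since all 10 point estimates lay inside 2-fold. Centring the fold changes on a list of rod genes, which shifts every gene by 0.22 and calls 1879 of the 9211, made 3 members lower (guca1c, guca1g and rcv1). By intervals from the normal distribution, the estimates still limit the size of any change. Intervals from a t distribution of 4 degrees of freedom would be wider and were not computed. The counts of intervals inside 2-fold or 0.5 therefore rest on the normal distribution. For 7 of the 10 genes the 95% interval of the fold change lay inside 2-fold in both directions, beside 97.1% of all genes. The intervals of gucy2f, guca1b, guca1c and rcv1 lay inside 0.5 on the log2 scale, a limit for which the share of all genes was not counted. The intervals of gc3, guca1g and zgc:73075 reached past a 2-fold fall.

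**Figure D1:**
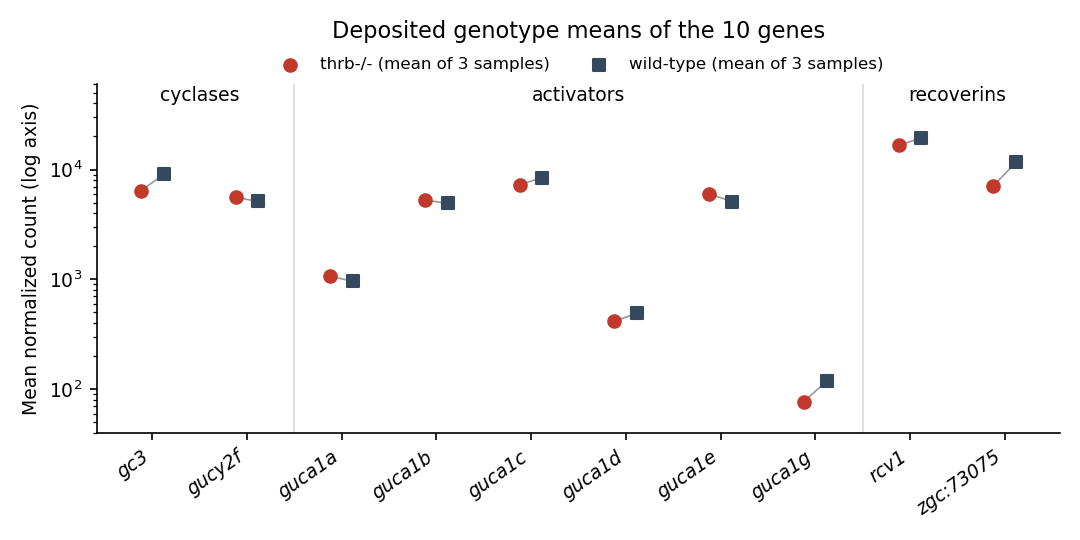
Deposited mean normalized count (log axis) of each of the 10 genes in thrb-/- retinas (red circles) and wild-type retinas (dark squares), each the mean of 3 samples; no error bars are drawn because the table has no values per sample. The widest gaps are those of zgc:73075, 7084 against 11644, and guca1g, 77.1 against 118, and levels are not to be compared between genes since they are not scaled to transcript length.

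The cyclases gave no call in either direction. The cone cyclase gc3, which RefSeq also names gucy2d, had a mean normalized count of 6424 in thrb-/- retinas and 9011 in wild-type retinas by the authors' deposited table. This was 71.3% of the wild-type level, a log2 fold change of -0.49 (SE 0.31) with a 95% interval from -1.09 to 0.11 and a Wald test adjusted p of 0.85. The interval spans 0.47 to 1.08 times the wild-type level, so the data say little about gc3. The other cyclase, gucy2f, RefSeq's gc1, was measured much more closely. It averaged 5571 in thrb-/- retinas and 5125 in wild-type retinas per the authors' deposited table, a difference of 0.12 in log2 (SE 0.10). The interval of gucy2f ran from -0.077 to 0.32, or from 0.948 to 1.25 times the wild-type level. A further retinal cyclase that the symbols did not select, gc2, averaged 3273 in thrb-/- retinas and 2793 in wild-type retinas per the authors' deposited table (0.23 in log2, SE 0.091, Wald test adjusted p = 0.27).

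Among the activators, the cone gene guca1c and the gene guca1b were the most closely measured. The authors' deposited table puts guca1c (GCAP3) at 7296 in thrb-/- retinas and 8432 in wild-type retinas, a log2 fold change of -0.21 (SE 0.12) with an interval from -0.44 to 0.026. For guca1b (GCAP2) the authors' deposited table gives 5269.7 in thrb-/- retinas and 4925 in wild-type retinas, a log2 fold change of 0.098 (SE 0.10) with an interval from -0.11 to 0.30. Neither activator gene passed, and both intervals, taken from the normal distribution, lay inside 0.5 in either direction. The 4 others had SEs of 0.31 or more. The cone gene guca1e (GCAP5) had 5991 in thrb-/- retinas against 5113 in wild-type retinas by the authors' deposited table, 0.23 in log2 (SE 0.35). Its interval, from -0.45 to 0.91, spans 0.73 to 1.88 times the wild-type level, so no direction can be read for it.

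The scarcer activators were also undecided. For guca1a (GCAP1) the authors' deposited table gives 1067 in thrb-/- retinas and 958 in wild-type retinas, 0.16 in log2 (SE 0.31). The cone gene guca1d (GCAP4) had 417 in thrb-/- retinas and 489.6 in wild-type retinas by the authors' deposited table, -0.23 in log2 (SE 0.36). The interval of guca1a ran from -0.46 to 0.77 and that of guca1d from -0.94 to 0.48, both including 0. The activator farthest from 0 was guca1g (GCAP7), another cone gene, with 77.1 in thrb-/- retinas and 118 in wild-type retinas by the authors' deposited table, -0.62 in log2 (SE 0.31). Only 0.988% of all genes had a lower fold change than guca1g, yet its adjusted p was 0.58 in the Wald test, and with a mean count of 97.6 it was the member nearest to the lowest levels in the table. Added together, the 6 activators came to 20118 normalized counts in thrb-/- retinas against 20035 in wild-type retinas, 100.4% of the wild-type sum. The sum weights longer and more abundant transcripts and carries no error.

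Both recoverins had lower means in thrb-/- retinas, without passing the test. By the authors' deposited table rcv1 averaged 16638 in thrb-/- retinas and 19306 in wild-type retinas, 86.2% of the wild-type level, or -0.21 in log2 (SE 0.098). Its interval, from -0.41 to -0.022, lay just below 0 before adjustment for the number of genes, and its adjusted p of 0.45 in the Wald test was the lowest of the 10. The difference in zgc:73075 was larger and far less certain. By the authors' deposited table zgc:73075 had 7084 in thrb-/- retinas against 11644 in wild-type retinas, 60.8% of the wild-type level, or -0.72 in log2 (SE 0.44). Only 0.749% of all genes had a lower fold change than zgc:73075. The interval of zgc:73075 ran from -1.58 to 0.15 (Wald test adjusted p = 0.82). Another recoverin outside the rule, rcvrna, RefSeq's rcv1a, lay on the other side of 0, at 6190.3 in thrb-/- retinas and 5097 in wild-type retinas by the authors' deposited table (0.28 in log2, SE 0.094), and also did not pass (Wald test adjusted p = 0.098).

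**Figure D2:**
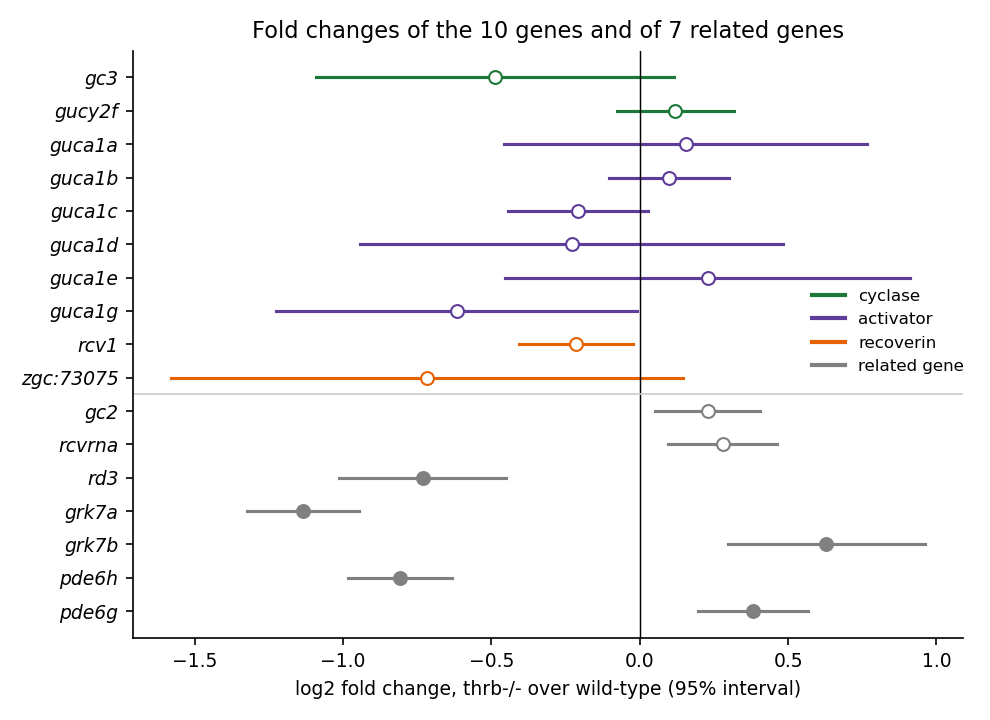
Log2 fold change of thrb-/- over wild-type retinas with its 95% interval for the 10 genes (upper rows, coloured by class) and 7 related genes (lower rows, grey); filled points passed the Wald test at an adjusted p of 0.05 and open points did not. All 10 points of the upper rows are open, and their intervals differ in width, from SE 0.098 for rcv1 to 0.44 for zgc:73075.

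By site, the point estimates of the cone members and of the rest lay mostly on opposite sides of 0. Of the 7 cone members, 6 had a log2 fold change below 0 and guca1e lay above it, with a median of -0.23. The 3 remaining members, gucy2f, guca1a and guca1b, all lay above 0, with a median of 0.12, but all 3 turned below 0 when fold changes were centred on the rod gene list. The median was -0.21 over all 10 and 0.00063 over all 9211 genes, of which 49.9% lay below 0. These counts rest on estimates that individually did not pass, and the difference between the sites was not tested. The cone list fixed for scaling (20 measured phototransduction and cone genes, no red opsins) had a median of -0.15, with 5 genes lower and 3 higher, and the rod list (15 measured) had 0.22, with 0 lower and 2 higher.

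The 10 genes divided sharply by the SE that the authors' fit gave them. For gucy2f, guca1b, guca1c and rcv1 the SE lay between 0.098 and 0.12, close to the median SE of 0.10 among genes with a mean count of at least 1000. For gc3, guca1a, guca1d, guca1e, guca1g and zgc:73075 it lay between 0.31 and 0.44. If size factors were near 1, these SEs imply a coefficient of variation within a genotype, with counting noise taken off. It was 8.29% to 10.1% for the 4 genes and 24.2% to 37.4% for the 6. These percentages are worked back from the SEs of the authors' fitted model and are not variation measured between samples. The level of a gene alone did not separate the 4 from the 6, because gc3 and guca1c, with means of 7718 and 7864, had SEs of 0.31 and 0.12. The scarcest members, guca1g, guca1d and guca1a, were nevertheless all among the 6. For guca1g, the median SE of genes within 2-fold of its mean was itself 0.21. Among the genes whose mean lay within 2-fold of its own, zgc:73075 had a larger SE than 99.2%, guca1d than 98.8%, guca1a than 98.5%, guca1e than 98.2%, gc3 than 97.0% and guca1g than 96.7%.

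Across the table the abundant genes formed separate bands of SE. Of the 2048 genes with a mean of at least 1000, none had an SE between 0.183 and 0.268, and 52, or 2.54%, lay above this gap. Of the 8 members at that level, 4 lay above the gap (gc3, guca1a, guca1e and zgc:73075) and 4 below. The limits of 0.25 and 1000 were chosen after the values were seen, so the share is a description. Of the related lists, the channel, exchanger and phosphodiesterase list had 2 of 9 genes of that level above the gap, the list of recoverin targets and shut-off genes 3 of 10, and the neuronal calcium sensor relatives 0 of 12. Without values per sample, it cannot be told whether 1 sample, 1 genotype or both made these SEs wide. The SEs are estimates of the authors' DESeq2 fit, and the part of that fit in the gap was not tested.

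**Figure D3:**
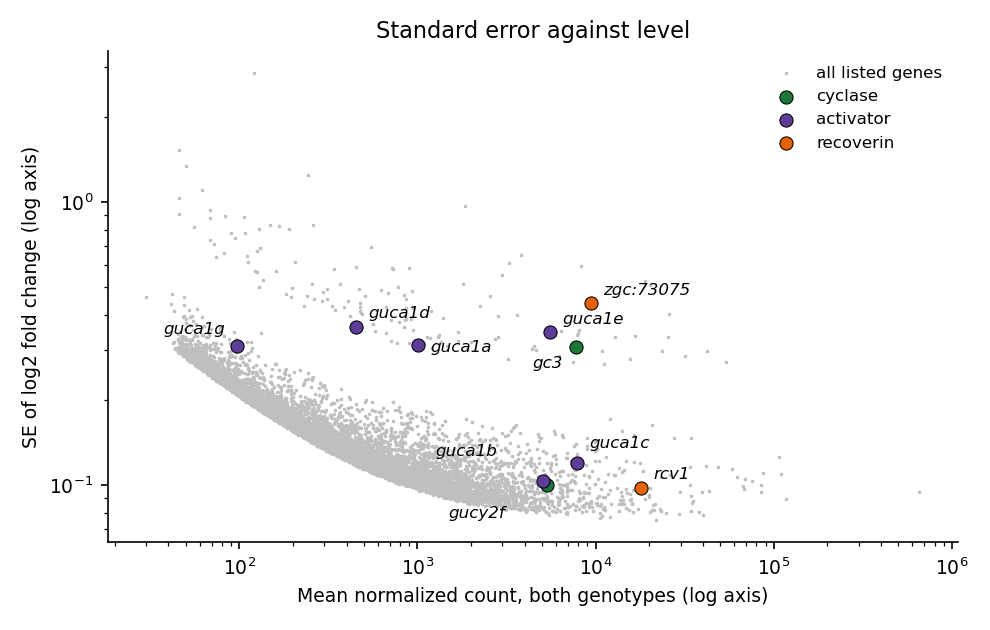
SE of the log2 fold change against the mean normalized count over both genotypes (both axes log) for all 9211 genes (grey) and the 10 members (coloured by class and named). Among abundant genes, gc3, guca1a, guca1e and zgc:73075 sit in the sparse upper band, and gucy2f, guca1b, guca1c and rcv1 in the dense lower one.

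Differences between genes of one class were tested directly, since a gene near the threshold and one far from it need not differ. Of 17 pairs (1 of cyclases, 15 of activators and 1 of recoverins), 0 differed at an adjusted p of 0.05 by a Wald test of the difference with Benjamini-Hochberg adjustment over the 17, and 1 had an unadjusted p under 0.05. That pair was guca1b and guca1g, 0.72 apart (SE 0.33, interval 0.074 to 1.36, adjusted p = 0.27, Wald test). The cyclases gc3 and gucy2f were -0.61 apart (SE 0.32, interval -1.24 to 0.025, adjusted p = 0.27, Wald test), and rcv1 and zgc:73075 were 0.50 apart (SE 0.45, interval -0.38 to 1.39). The activators guca1b and guca1c, both closely measured, were 0.31 apart (SE 0.16, interval -0.0043 to 0.62). The SE of a difference takes the estimates as independent, although both come from the same samples.

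The cyclase gc2 and the recoverin rcvrna, family genes whose symbols the rule leaves out, were also set against the members. These 4 comparisons were added after the value of rcvrna was seen, with adjustment over the 4. Their p-values are therefore descriptions, and a pass among them is not a test result. The fold change of rcv1 lay below that of rcvrna (first minus second -0.49, SE 0.14, interval -0.76 to -0.23, adjusted p = 0.0011, Wald test). The recoverin zgc:73075 differed from rcvrna by -1.0 (SE 0.45, adjusted p = 0.036), and gc3 differed from gc2 by -0.72 (SE 0.32, adjusted p = 0.036) in the same Wald test. For gucy2f and gc2 the difference was -0.11, with an interval from -0.37 to 0.16. With a t distribution of 4 degrees of freedom all 3 calls were lost, with an adjusted p of 0.087 for rcv1 against rcvrna and 0.12 for the others.

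Some genes whose proteins act together with these did pass the test, which 1.21% of all genes passed as lower and 0.879% as higher. Of 9 measured genes on a list of other cyclase and cyclic GMP genes, 1 fell, 0 rose and 8 did not pass (median -0.16). The gene that fell was rd3, whose protein in mammals binds retinal guanylate cyclases and is needed for their transport to the outer segment. The authors' deposited table gives rd3 a mean of 1810.0 in thrb-/- retinas against 3004 in wild-type retinas, 1.66-fold lower, or -0.73 in log2 (SE 0.14, Wald test adjusted p = 5.93e-05). The fold change of gucy2f was 0.85 above that of rd3 (SE 0.18), and that of gc3 was 0.24 above it (SE 0.34). Because rd3 was picked from its list for having passed, these differences are descriptions with no test. With a t distribution of 4 degrees of freedom only 1 of the 9211 genes passed, opn1lw2, so the calls of rd3 and of every other related gene named here rest on the normal distribution. The mutated gene thrb and the red opsin opn1lw1 did not pass with that t distribution either (adjusted p = 0.10 and 0.11).

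Of 12 measured recoverin targets and shut-off genes, 2 fell, 1 rose and 9 did not pass (median -0.11). The cone opsin kinase gene grk7a, of the kinase family that recoverin inhibits, had 2659.9 in thrb-/- retinas against 5844 in wild-type retinas by the authors' deposited table, -1.14 in log2 (SE 0.096). Its paralog grk7b rose, with 708 in thrb-/- retinas against 458 in wild-type retinas by the authors' deposited table, 0.63 in log2 (SE 0.17), a call lost when centred on the rod list (Wald test adjusted p = 0.07). The gene rgs9a, whose protein shortens the activity of transducin, fell, with -0.48 (SE 0.11) in the authors' deposited table. The other opsin kinase genes on the list did not pass. The authors' deposited table gives grk1a 12858 in thrb-/- retinas and 12891 in wild-type retinas, -0.0036 in log2 (SE 0.11). For grk1b it is 5066 in thrb-/- retinas and 6079 in wild-type retinas by the authors' deposited table, -0.26 in log2 (SE 0.12). Set beside all 4 kinase genes, the fold change of rcv1 minus theirs was 0.92 for grk7a (SE 0.14), -0.84 for grk7b (SE 0.20), -0.21 for grk1a (SE 0.15) and 0.049 for grk1b (SE 0.15). For zgc:73075 minus the same genes it was 0.42 (SE 0.45), -1.35 (SE 0.47), -0.71 (SE 0.45) and -0.45 (SE 0.46), in the same order. These differences carry no test, since grk7a and grk7b stand out on the list by the size of their change.

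**Figure D4:**
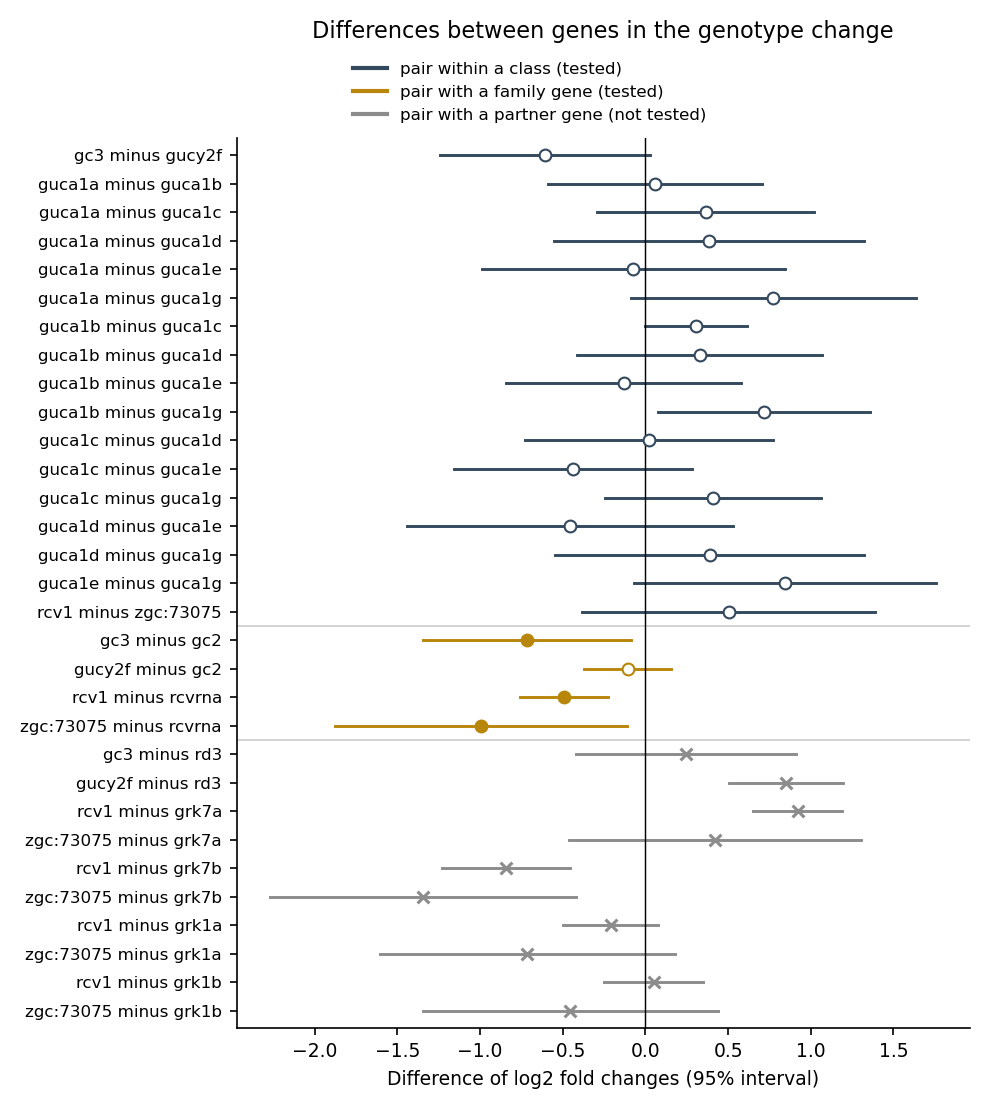
Difference between the log2 fold changes of 2 genes, first minus second, with its 95% interval, for 17 pairs within a class (dark), 4 pairs of a member with a family gene outside the rule (gold) and 10 pairs with a partner gene (grey crosses, not tested); filled circles passed the Wald test of the difference at an adjusted p of 0.05. No circle is filled among the 17 pairs, and 3 are filled among the 4. Those 4 pairs were added after the value of rcvrna was seen, so their filled circles are descriptions.

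Of 9 measured genes of the channel, exchanger and phosphodiesterase list, 1 fell, 2 rose and 6 did not pass (median 0.057). The inhibitory subunit gene of the cone phosphodiesterase, pde6h, fell (log2 fold change -0.81, SE 0.089), and that of the rod phosphodiesterase, pde6g, rose (0.38, SE 0.095), both by the authors' deposited table. When centred on the rod list, which itself holds pde6g, pde6g did not pass (Wald test adjusted p = 0.21). The gene si:dkey-22i16.2, which RefSeq names cnga1a and which encodes a subunit of the rod channel, also rose, with 0.53 (SE 0.091) in the authors' deposited table. Among 21 measured neuronal calcium sensor relatives and other calmodulin-like sensors, 0 fell and 0 rose by the Wald test (median 0.041). At an unadjusted p of 0.05, 0 were lower and 1 higher, beside 4.54% and 3.76% of all genes. The most abundant of these sensors were cabp5a at 0.21 (SE 0.12) and ncaldb at -0.012 (SE 0.17) in the authors' deposited table. At an unadjusted p of 0.05 in that test, the channel list had 2 lower and 3 higher and the recoverin targets 6 and 2. The other cyclase genes had 2 and 0, the rod list 0 and 8, and the cone list 7 and 4.

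Markers of other cells moved as well, in a test that 1.21% of all genes passed as lower and 0.879% as higher. All 4 measured pigment epithelium and melanin genes fell (median -0.97, with a summed count of 1535 in thrb-/- retinas against 3191 in wild-type retinas). The 3 red cone genes, opn1lw1, opn1lw2 and thrb, fell too. All 3 had already served to check the labels, and thrb is the mutated gene itself. Of the other markers, 1 of 4 green cone genes, 2 of 3 blue and ultraviolet cone genes and 1 of 7 rod genes rose. Among 6 ganglion cell genes, 2 rose, elavl3 and elavl4. The rest of these, rbpms2a (-0.029 in log2), rbpms2b (-0.019), isl2b (-0.22) and pou4f1 (0.14), did not pass. By the same Wald test none of 8 bipolar, 5 Müller glia, 4 leukocyte, 1 red blood cell and 2 lens genes passed. At an unadjusted p of 0.05, 2 bipolar genes and 1 Müller glia gene were higher, beside 3.76% of all genes. Higher at that p were also 1 green cone, 3 blue and ultraviolet cone, 2 rod and 2 ganglion cell genes. When centred on the rod list, which itself holds the 7 rod markers, none of the green, blue and ultraviolet cone, rod and ganglion cell rises passed. With that centring 2 bipolar, 2 Müller glia and 1 ganglion cell gene were lower, and the pigment epithelium and red cone counts were 4 and 3 as before. The part of these cells in the values of the 10 genes was not tested.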

How the data were processed

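Poly-A-selected RNA of 6 pooled retina samples, 3 thrb-/- and 3 wild-type, was sequenced. The submitters' processing notes name the build danRer10, R 3.4.3 with DESeq2 1.18.1, HTSeq 0.9.1, STAR 2.7.2b and cutadapt 1.9.1. The sources used here do not give settings, annotation or strand use. The authors deposited, as a signal, the mean normalized count of each genotype (taken as counts divided by size factors, not stated in the headers). They also deposited the log2 fold change with its SE, a score (the statistic) and a p-value that is 1 unless the change exceeds 2-fold, so it tests no smaller change. From these the Wald test was computed against the normal distribution, with intervals of 1.96 SE, in Python 3.11.15 with scipy 1.17.1. The calculation was run on fold changes simulated with normal errors of the same SEs, which cannot check the SEs or the choice of distribution. The Wald test rests on the authors' model estimate of the spread between pooled samples. Depth per sample is unknown, and precision was taken from the SE. The larger genotype mean was never below 50.04, so the table had been filtered on level. Members, lists and tests were chosen with earlier results of these data known. Every member was named, and from each list up to 4 genes past the threshold or the 2 most abundant. Names were matched through RefSeq synonyms (GRCz12tu assembly). The related genes gucy2ca, gucy2cb, gucy2g, rcvrnb and guca1ab.2 and all sequences were not analysed here. RefSeq lists guca1e as guca1ab.1, beside a relative named guca1ab.2 that was not among the genes measured here. Whether guca1e and guca1ab.2 share reads was not tested. Alternatives changed the reference distribution, the number adjusted over, the scaling, the level filter, the test and the pseudocount.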

Additional observations from a re-analysis of the deposited data

How the results depend on the processing

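No paired analysis was possible because values of single samples are not given, and for the same reason no replicate could be left out. With a t reference distribution of 4 degrees of freedom, adjusted over the 13700 genes that the deposited adjusted p-values imply, under the authors' test, with means of at least 100 (guca1g lies below) and centred on all genes or on the cone list, 0 members passed in either direction and no member changed sign. The t distribution and the larger number of genes can only raise adjusted p-values, and the authors' test cannot call an estimate inside 2-fold. These settings therefore could not have called a member. Group means with a pseudocount of 1 or 10 moved no member by as much as its SE. Centring on the rod list shifts all genes by 0.22 and raises the calls to 1879 of 9211 genes, against 192. Then 3 members were lower, guca1c (-0.43, adjusted p = 0.0047), guca1g (-0.84, 0.038) and rcv1 (-0.44, 0.0003, Wald test), and gucy2f (-0.10), guca1a (-0.068) and guca1b (-0.13) turned below 0. Under that centring the channel list had a median of -0.17 with 2 genes lower and 1 higher, the recoverin targets -0.33 with 6 and 0, the calcium sensors -0.18 with 3 lower, the other cyclase genes -0.38 with 4 lower, the rod list 0 with 1 higher, and the cone list -0.38 with 9 and 0. Centred on the cone list, a shift of -0.15, the medians were 0.21, 0.046 (1 lower, 3 higher), 0.19 (2 higher), -0.0052, 0.38 (9 higher) and 0 in the same order. The other alternatives run on the lists moved no count by over 1.5 times. Adjusted over 13700 genes, opn1sw2 and elavl4 lost their call (Wald test adjusted p = 0.052 and 0.072). Differences with family genes that lost their call with the t distribution were rcv1 minus rcvrna (-0.49, adjusted p = 0.087), zgc:73075 minus rcvrna (-1.0, 0.12) and gc3 minus gc2 (-0.72, 0.12). With summed SEs, the last 2 also lost it (adjusted p = 0.096 for both by the Wald test). The cause of these changes was not tested.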

Other observations

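The 52 abundant genes above the gap in SE included other photoreceptor genes beside the 4 members. Named after their values were seen, among these were the green opsins opn1mw1 (SE 0.59) and opn1mw3 (0.51), the red opsin opn1lw1 (0.40), the cone arrestins arr3b (0.35) and arr3a (0.30), the cone phosphodiesterase gene pde6c (0.27) and the rod arrestin sagb (0.27), in the authors' deposited table. Of the 19 genes of that level on the cone list 5 lay above the gap, and of the 13 on the rod list 1. The 3 widest SEs of the 52 belonged to genes on none of the lists used here, tax1bp1b (0.97), nr1d2b (0.65) and fkbp5 (0.61). Among the others on no list were nfil3-2 (0.56), nfil3-5 (0.53), arg2 (0.46), pank2 (0.43), lgalsla (0.41), per1b (0.40), bhlhe40 (0.34) and per3 (0.30). These were picked from the 52 after their values were seen, and not by rank alone. The band thus held genes other than the photoreceptor genes named, and the kinds of gene in it were not tested.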
